A study of Mus musculus with 8 samples.

Results

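Mitochondrial DNA of the mouse carries 37 genes, and all 37 were among the 41457 genes listed for each of 8 RNA samples of cultured keratinocytes (KCs). They were chosen as the genes whose symbol starts with mt-, and comprise 13 messenger RNA, 2 ribosomal RNA and 22 transfer RNA genes on chromosome MT of GRCm38. The KCs came from tail skin of adult wildtype C57BL/6 mice (C57BL/6J in the methods of the study) and were left untreated. They were kept for 1 week (4 samples) or 3 weeks (4 samples) in serum-free KC medium with low Ca++. The comparison asks which RNAs change while primary KCs stay in culture. All samples shared genotype, strain, tissue, medium and lack of treatment, and differed in weeks of cultivation. The KCs were a primary culture of adherent cells and not a clone. Per the study, the same batches of KCs were meant for both times. Of the numbers carried by the deposited tables, here called deposit numbers, 3 (46, 49 and 90) occur in both groups. What the deposit number marks is not stated.

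Mitochondrial DNA is transcribed from both strands into long precursors. In the precursor of the heavy strand, the ribosomal RNAs come first and mt-Cytb last, and most genes are separated by transfer RNAs that are cut out to release the messenger RNAs. The messenger RNAs encode subunits of 4 of the respiratory chain and ATP synthase complexes, whose other subunits come from nuclear genes. Most of these messenger RNAs receive short poly(A) tails, while that of mt-Nd6, the one messenger RNA of the light strand, is known to lack a stable tail. The libraries were made from poly(A) RNA, so neither transfer RNAs nor ribosomal RNAs were a target of the capture.

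The gene ends show where a tail completes the stop codon. Of the 13 messenger RNA genes as annotated, 10 end in a complete stop codon. In mt-Nd1 and mt-Nd2, the last 2 bases of that codon also lie in the transfer RNA gene that follows. The other 3 genes end in a single T that becomes a stop codon when adenines are added. The last 30 bases of these 3 genes and of the neighbouring mt-Nd5 are shown 5′ to 3′ from GENCODE M21 transcripts, with the stop codon or its first base in capitals. They lie at MT:9361-9390, MT:11515-11544, MT:15259-15288 and MT:13536-13565, all on the + strand.
mt-Co3: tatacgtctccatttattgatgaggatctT
mt-Nd4: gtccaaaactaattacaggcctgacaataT
mt-Cytb: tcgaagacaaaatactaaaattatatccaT
mt-Nd5: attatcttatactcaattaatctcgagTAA

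Neighbouring genes share bases in 9 places, and the 3 longest overlaps lie between messenger RNA genes. They are shown on the + strand because reads in them can belong to either gene. Capitals mark the start codon of the second gene and the stop codon of the first, and for mt-Nd5 and mt-Nd6, which are read in opposite directions, both stop codons. The overlaps are 43 bases at MT:7927-7969, 7 bases at MT:10167-10173 and 14 bases at MT:13552-13565.
mt-Atp8 and mt-Atp6: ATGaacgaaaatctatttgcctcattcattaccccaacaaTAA
mt-Nd4l and mt-Nd4: ATGcTAA
mt-Nd5 and mt-Nd6: TTAatctcgagTAA

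The library kit does not mark strand. Reads from mt-Nd6 and from the 8 transfer RNA genes on the - strand therefore cannot be told apart from antisense RNA of the heavy-strand precursor. The samples held 13896807 to 20026084 exon reads at 1 week and 14096649 to 18127283 at 3 weeks. Summed RPKM (reads per exon length and sequencing depth) of 8 basal KC markers was 12500 to 14692 at 1 week and 7464 to 8605 at 3 weeks, and at least 88.8% of it was Krt5 and Krt14. Of the 8 markers, 5 (Itga6, Itgb4, Cdh1, Cdh3 and Dsg3) had their lowest value of all samples in 3 weeks replicate 3. Cdh1, for E-cadherin, was at 155, 223, 190 and 204 RPKM at 1 week and at 297, 239, 134 and 380 RPKM at 3 weeks. Markers of other skin cells summed to at most 4.65 (6 fibroblast genes), 20.9 (5 melanocyte genes), 20.3 (5 leukocyte genes) and 0.559 RPKM (4 endothelial genes) in any sample. The Langerhans cell gene Cd207 was at 0 in every sample. The leukocyte sum was 14.8 to 20.3 RPKM at 1 week and 7.14 to 13.2 at 3 weeks, without overlap, and the part of any of these cell types in the results was not tested. In bulk RNA, fewer cells of a type and less RNA per cell cannot be told apart.

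Genes of mitochondrial DNA took a larger share of the exon reads at 3 weeks than at 1 week. The share was 3.66%, 3.05%, 2.39% and 2.19% in 1 week replicates 1 to 4. At 3 weeks it was 3.73%, 4.43%, 13.3% and 4.30% in replicates 1 to 4. The groups did not overlap, but 3 weeks replicate 1 lay only just above 1 week replicate 1, and 3 weeks replicate 3 stood far above all other samples. The means were 2.82% ± 0.669 (SD, n = 4) and 6.43% ± 4.57 (SD, n = 4), a difference of 3.61 percentage points that fell to 1.33 points without 3 weeks replicate 3. The 95% Wilson intervals of single samples were at most ±0.0167 percentage points wide and cover counting error only. The labels give 3 weeks replicate 3 no feature of its own, and the deposited table numbers it 57, a number carried by no 1 week sample.

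**Figure D1:**
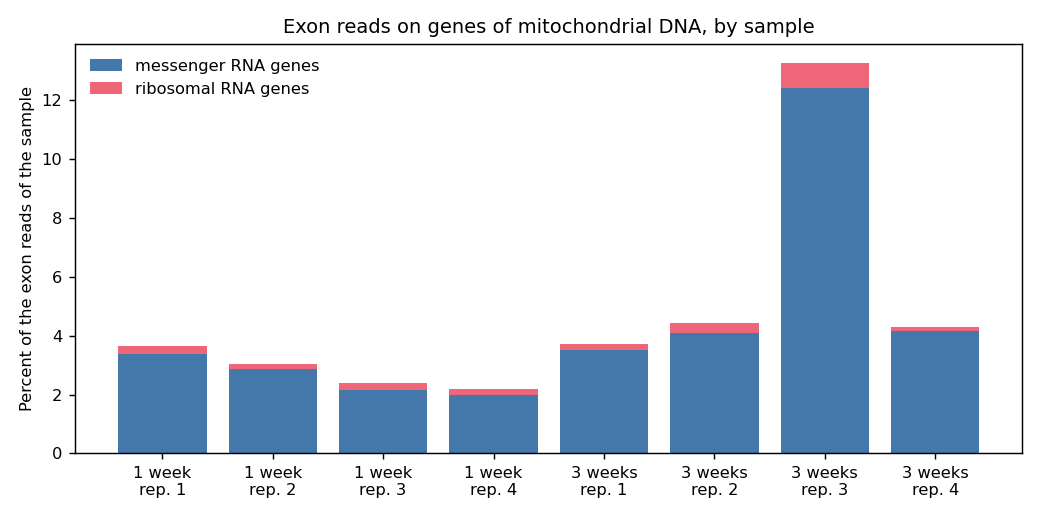
Percent of each sample's exon reads on mitochondrial messenger RNA genes and ribosomal RNA genes, stacked, for the 4 samples of each group. The bars of 3 weeks replicates 1, 2 and 4 reach 3.73% to 4.43%, that of 3 weeks replicate 3 reaches 13.3%, and the 1 week bars reach 2.19% to 3.66%; transfer RNA genes, at most 0.0107%, are left out.

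Nearly all of these reads were on messenger RNA genes. Their share was 3.38%, 2.86%, 2.16% and 2.00% at 1 week and 3.52%, 4.11%, 12.4% and 4.15% at 3 weeks. The ribosomal RNA genes took 0.275%, 0.192%, 0.229% and 0.190% at 1 week and 0.204%, 0.318%, 0.831% and 0.141% at 3 weeks, so the groups overlapped. Reads on messenger RNA genes outnumbered those on ribosomal RNA genes 12.3, 14.9, 9.46 and 10.5 times at 1 week. At 3 weeks the ratios were 17.2, 12.9, 14.9 and 29.4, and the highest came from replicate 4, which had the lowest ribosomal RNA share of all samples. As the libraries were made by poly(A) capture, these are ratios of reads and not of the amounts of RNA in the cells.

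Mitochondrial messenger RNAs were among the most abundant RNAs of the KCs. By mean RPKM over a group, 2 of the 5 highest genes of the whole table were mitochondrial at 1 week and all 5 were at 3 weeks. Without 3 weeks replicate 3, 4 of the 5 were, as the keratin gene Krt14 (5252 RPKM) then stood above mt-Co2 (5058 RPKM). The ranks moved from 2 to 1 for mt-Atp6, from 4 to 2 for mt-Atp8, from 8 to 3 for mt-Co3, from 7 to 4 for mt-Co1 and from 9 to 5 for mt-Co2. Genes of lower level moved further, with mt-Nd5 going from rank 216 to 47 and mt-Nd6 from 237 to 44.

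**Figure D2:**
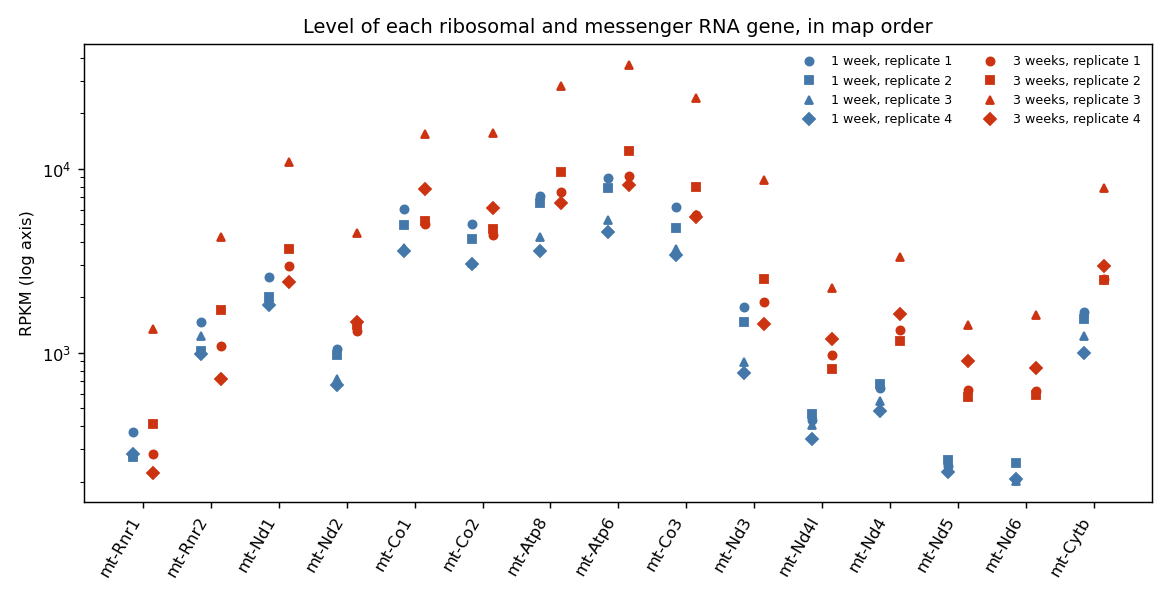
RPKM on a log axis of the 2 ribosomal and 13 messenger RNA genes in the order of the mitochondrial map, with 1 point per sample. Every gene is highest in 3 weeks replicate 3; for mt-Nd4l, mt-Nd4, mt-Nd5, mt-Nd6, mt-Cytb and mt-Nd2 all 4 samples of 3 weeks lie above all 4 of 1 week.

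In the edgeR quasi-likelihood fit over 12590 genes, 22 of the 37 mitochondrial genes had enough reads to be tested. Of these 22, 10 rose at 3 weeks and 0 fell at an adjusted p-value under 0.05, where 15.7% of all genes tested rose. An unadjusted p under 0.05 was reached by 20 of the 22, also all higher. The share of all genes at that looser threshold is not given here, so this count cannot be set against it. The median log2 fold change of the 22 genes was 1.62, and that of all genes tested was 0.03. Without 3 weeks replicate 3 the median of the 22 was 0.75 and again 10 genes rose, where 17.1% of all genes did. In RPKM, 9 of the 22 were higher in every 3 weeks sample than in every 1 week sample, where 10.8% of all genes tested were. These counts cover only genes with enough reads, and 1 of them, mt-Ty, passed only through its reads at 3 weeks. The 10 that rose were mt-Nd2, mt-Nd4l, mt-Nd4, mt-Nd5, mt-Nd6, mt-Cytb and 4 transfer RNA genes.

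Complex I, which passes electrons from NADH to ubiquinone, has 7 subunits encoded in mitochondrial DNA, and 5 of their genes rose. mt-Nd5 (MT:11742-13565, + strand), a proton-pumping subunit of the membrane arm, was at 242, 262, 232 and 226 RPKM in 1 week replicates 1 to 4 and at 626, 578, 1413 and 899 RPKM in 3 weeks replicates 1 to 4. All 3 weeks samples lay far above the narrow range of the 1 week samples. The log2 fold change was 2.07 ± 0.32 (SE, edgeR adjusted p = 0.00173), and 1.64 ± 0.17 without 3 weeks replicate 3 (edgeR adjusted p = 8.2e-04).

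mt-Nd6 (MT:13552-14070, - strand), the only messenger RNA gene of the light strand, was at 207, 251, 202 and 206 RPKM at 1 week and at 619, 593, 1607 and 825 RPKM at 3 weeks. It had the largest log2 fold change of the 13 messenger RNA genes, 2.28 ± 0.36 (SE, edgeR adjusted p = 0.00188). In RPKM, the reads on mt-Nd6 kept close to the level of mt-Nd5, at 0.856 to 0.957 of it at 1 week and 0.918 to 1.14 of it at 3 weeks. The groups of this ratio overlapped. As the libraries do not mark strand, reads on mt-Nd6 can come from RNA of either strand. Neither its rise nor this ratio can therefore be assigned to the light strand.

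mt-Nd4l and mt-Nd4, further membrane subunits that lie on one messenger RNA and share the 7 bases printed above, rose together. mt-Nd4l (MT:9877-10173) was at 433, 464, 406 and 341 RPKM at 1 week and at 968, 817, 2260 and 1196 RPKM at 3 weeks. mt-Nd4 (MT:10167-11544) was at 644, 674, 551 and 481 RPKM at 1 week and at 1331, 1165, 3318 and 1628 RPKM at 3 weeks. Neither gene overlapped between the groups. Their log2 fold changes were 1.88 ± 0.35 and 1.87 ± 0.38 (SE, edgeR adjusted p = 0.00385 and 0.00562).

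mt-Nd2 (MT:3914-4951), a membrane subunit encoded near the start of the messenger RNA genes, was at 1053, 976, 724 and 671 RPKM at 1 week and at 1314, 1412, 4499 and 1465 RPKM at 3 weeks. The groups did not overlap, and the log2 fold change was 1.56 ± 0.46 (SE, edgeR adjusted p = 0.0301). It was 0.80 ± 0.18 without 3 weeks replicate 3 (edgeR adjusted p = 0.0110). It was called in 16 of 23 alternatives: the call was lost when any single 1 week sample was left out (adjusted p up to 0.0828), in both limma fits and with replicate number as a block (adjusted p = 0.0786).

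The other complex I genes, mt-Nd1 and mt-Nd3, missed the threshold. mt-Nd1 (MT:2751-3707) was at 2586, 2006, 1987 and 1812 RPKM at 1 week and at 2958, 3686, 10874 and 2441 RPKM at 3 weeks. mt-Nd3 (MT:9459-9806) was at 1770, 1478, 894 and 775 RPKM at 1 week and at 1879, 2520, 8677 and 1439 RPKM at 3 weeks. In both, 3 weeks replicate 4 fell within the range of the 1 week samples. The log2 fold changes were 1.47 ± 0.50 and 1.80 ± 0.62 (SE, edgeR adjusted p = 0.0502 and 0.0517). Without 3 weeks replicate 3, mt-Nd1 passed at 0.62 ± 0.19 (SE, edgeR adjusted p = 0.0364), since its spread was then smaller, and mt-Nd3 did not (0.76 ± 0.32, edgeR adjusted p = 0.0930).

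Complex III, which passes electrons from ubiquinol to cytochrome c, has 1 mitochondrial gene, mt-Cytb (MT:14145-15288), for cytochrome b. It was at 1672, 1522, 1233 and 997 RPKM at 1 week and at 2517, 2476, 7905 and 2976 RPKM at 3 weeks. The lowest 3 weeks sample was well above the highest 1 week sample. The log2 fold change was 1.76 ± 0.45 (SE, edgeR adjusted p = 0.0160), and 1.06 ± 0.20 without 3 weeks replicate 3. The call was lost only when 1 week replicate 4 was left out (adjusted p = 0.0512) and held in 22 of 23 alternatives.

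Complex IV, cytochrome c oxidase, has its 3 core subunits encoded in mitochondrial DNA, and none of the 3 genes passed the test. mt-Co1 (MT:5328-6872), for the subunit that holds the oxygen-reducing centre, was at 6045, 4949, 3693 and 3588 RPKM at 1 week and at 5016, 5236, 15493 and 7785 RPKM at 3 weeks. 3 weeks replicates 1 and 2 were within the 1 week range and replicates 3 and 4 above it. The log2 fold change was 1.08 ± 0.43 (SE, edgeR adjusted p = 0.0827). mt-Co2 (MT:7013-7696) had a log2 fold change of 1.22 ± 0.47 and mt-Co3 (MT:8607-9390) of 1.49 ± 0.54 (SE, edgeR adjusted p = 0.0729 and 0.0634), and without 3 weeks replicate 3 these were 0.49 and 0.59, with 0.49 for mt-Co1.

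The ATP synthase genes mt-Atp8 (MT:7766-7969) and mt-Atp6 (MT:7927-8607) lie on one messenger RNA and encode parts of its membrane sector. mt-Atp6 was at 8922, 7877, 5258 and 4545 RPKM at 1 week and at 9162, 12470, 36739 and 8185 RPKM at 3 weeks. The 3 weeks samples had the 3 highest values, but replicate 4 lay below the highest 1 week sample. The log2 fold changes were 1.55 ± 0.55 for mt-Atp6 and 1.50 ± 0.53 for mt-Atp8 (SE, edgeR adjusted p = 0.0566 and 0.0557), and 0.67 and 0.65 without 3 weeks replicate 3. With DESeq2 on the same counts, all 13 messenger RNA genes were called higher, where DESeq2 called 19.3% of all genes tested higher.

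Neither ribosomal RNA gene passed the test. mt-Rnr1 (MT:70-1024, 12S) was at 373, 272, 281 and 284 RPKM at 1 week and at 281, 411, 1356 and 223 RPKM at 3 weeks. mt-Rnr2 (MT:1094-2675, 16S) was at 1465, 1019, 1229 and 984 RPKM at 1 week and at 1086, 1708, 4269 and 722 RPKM at 3 weeks. In both genes 3 weeks replicate 4 had the lowest value of all 8 samples and replicate 3 the highest. The log2 fold changes of 1.14 ± 0.57 and 0.95 ± 0.53 (SE, edgeR adjusted p = 0.155 and 0.202) passed the test in none of the 23 alternatives, and without 3 weeks replicate 3 they were 0.10 ± 0.22 and 0.09 ± 0.29 (SE).

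**Figure D3:**
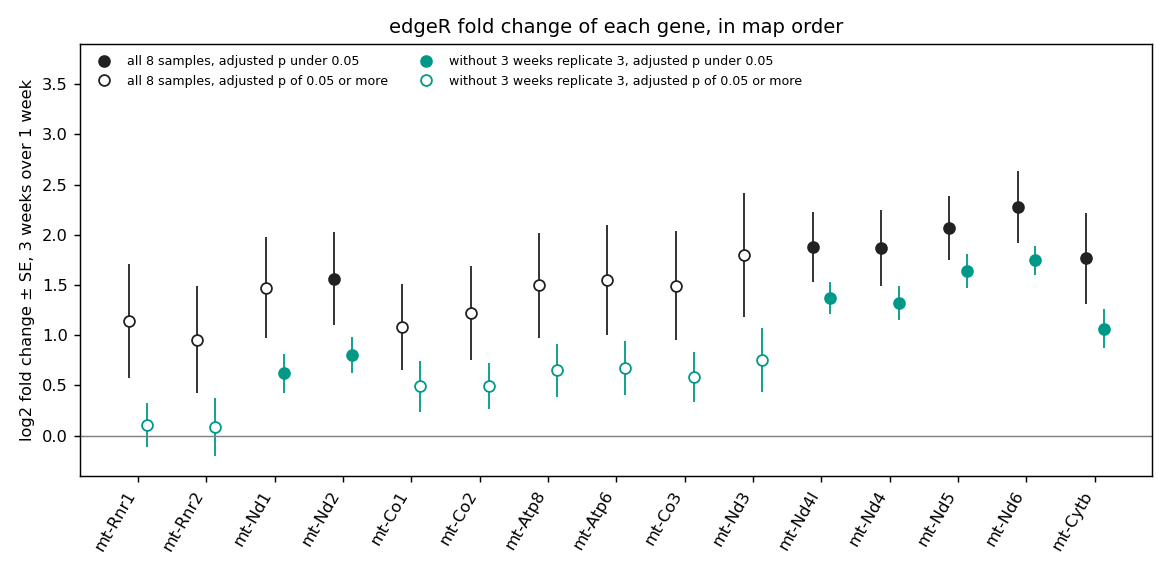
log2 fold change with SE of the 15 ribosomal and messenger RNA genes from edgeR, in map order, with all 8 samples (black) and without 3 weeks replicate 3 (green); filled points have an adjusted p under 0.05. From mt-Nd4l to mt-Cytb every gene is filled in both fits, at 1.76 to 2.28 with all samples and 1.06 to 1.74 without replicate 3.

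The 5 messenger RNA genes from mt-Nd4l to mt-Cytb are contiguous on the map apart from transfer RNAs. Over the 12 messenger RNA genes of the + strand, start position and log2 fold change had a Spearman rho of 0.76, and of 0.71 without 3 weeks replicate 3. In single 3 weeks samples, set against the mean of 1 week, rho was 0.64, 0.78, 0.82 and 0.58 in replicates 1 to 4. The fold change also ran with the level at 1 week (rho = -0.78), and position ran with that level (rho = -0.48). These are descriptions across 12 genes that share libraries and precursors.

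The same reads can be given as shares of all mitochondrial messenger RNA reads. The 5 genes from mt-Nd4l to mt-Cytb were grouped after their rises were seen, so their joint share restates that choice. They took 10.6%, 12.3%, 13.5% and 12.6% of them at 1 week and 18.9%, 15.1%, 14.7% and 20.2% at 3 weeks. 3 weeks replicate 3, which had the highest levels, had the smallest such share of the 3 weeks samples. mt-Nd6 alone took 0.33%, 0.47%, 0.50% and 0.56% at 1 week and 0.94%, 0.77%, 0.69% and 1.07% at 3 weeks. mt-Cytb took 5.82% to 6.74% at 1 week and 7.10% to 8.54% at 3 weeks. For mt-Nd5 the groups nearly met, with 2.15% in 1 week replicate 4 and 2.14% in 3 weeks replicate 3.

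mt-Co1 moved the other way in 3 samples of 4. It took 28.4%, 27.5%, 27.3% and 28.8% of the mitochondrial messenger RNA reads at 1 week, and 22.6%, 20.3%, 19.9% and 30.2% at 3 weeks. 3 weeks replicate 4 was above every 1 week sample and the other 3 were below. The same sample had the smallest shares of mt-Atp6 (14.0%) and mt-Co3 (10.8%).

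**Figure D4:**
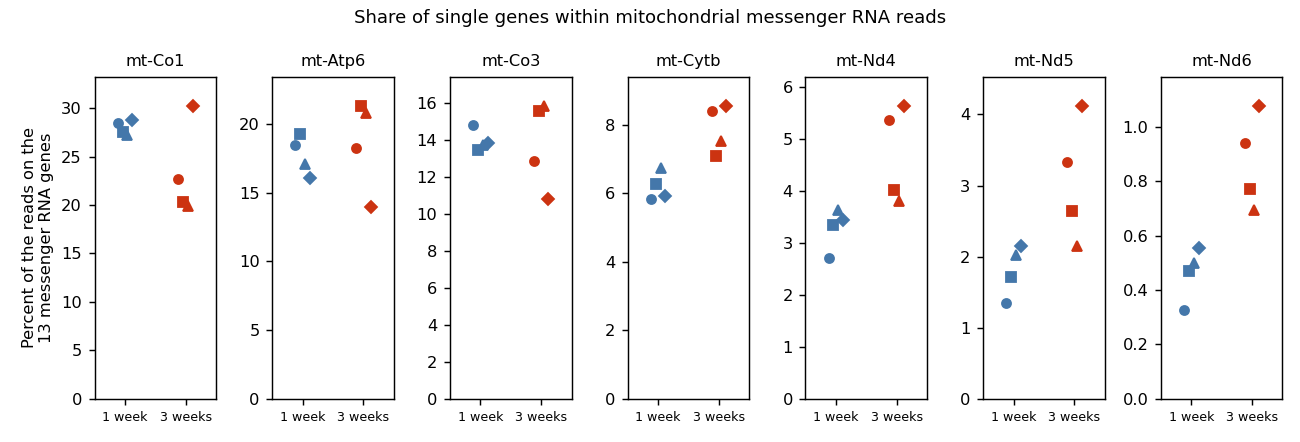
Percent of the reads on the 13 mitochondrial messenger RNA genes that fell on 7 of them, per sample (circle, square, triangle and diamond for replicates 1 to 4), with the axis of each panel starting at 0. mt-Nd6, mt-Nd4 and mt-Cytb are higher in every 3 weeks sample; mt-Co1 is lower in 3 of 4, and replicate 4 stands above the 1 week samples.

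Transfer RNA genes held 4802 reads in all 8 samples together, and 5 of them held 89.2% of these. Of the 22, 2 genes (mt-Tr and mt-Ts2) had no read, 11 had 1 to 20 reads, and 9 had more. A count of 0 for mt-Tr allows up to 2.14 to 3.07 RPKM, depending on the sample. That limit takes the full gene length, while a read of 59 bases fits at only 10 places within mt-Tr, so it does not bound the RNA itself. The sequences of the 3 most counted are printed from the + or - strand on which each is annotated, because their position sets what their reads can be: mt-Tl1 (MT:2676-2750, + strand) lies next to mt-Nd1, mt-Te (MT:14071-14139, - strand) next to mt-Nd6, and the last 3 bases of mt-Ts1 (MT:6870-6938, - strand), in capitals, lie opposite the stop codon of mt-Co1.
mt-Tl1: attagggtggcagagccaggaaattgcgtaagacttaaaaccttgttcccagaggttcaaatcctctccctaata
mt-Te: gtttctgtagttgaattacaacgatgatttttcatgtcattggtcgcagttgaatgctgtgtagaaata
mt-Ts1: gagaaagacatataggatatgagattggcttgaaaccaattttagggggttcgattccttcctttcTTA

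Of the 7 transfer RNA genes tested, mt-Te, mt-Tl1, mt-Tn and mt-Ty rose. mt-Te, for glutamate, had 63, 61, 34 and 37 reads at 1 week and 108, 88, 272 and 122 at 3 weeks, without overlap, and a log2 fold change of 1.94 ± 0.42 (SE, edgeR adjusted p = 0.00790). mt-Tl1, for a leucine transfer RNA, had 62, 72, 42 and 50 reads at 1 week and 95, 127, 285 and 56 at 3 weeks. In RPKM the groups of mt-Tl1 did not overlap either (43.4, 46.6, 39.0 and 37.8 against 68.0, 103, 231 and 50.8), and the log2 fold change was 1.65 ± 0.48 (SE, edgeR adjusted p = 0.0283). mt-Te was called in all 23 alternatives and mt-Tl1 in 16 of 23. With the deposit number as a block, over the 6 samples whose number both groups carry, mt-Tl1 had 0.90 ± 0.32 (SE, edgeR adjusted p = 0.0847). The same 6 samples without the block gave 0.96 (edgeR adjusted p = 0.0521).

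mt-Tn, for asparagine, had 12, 22, 11 and 14 reads at 1 week and 29, 27, 108 and 15 at 3 weeks. Its log2 fold change was 1.95 ± 0.64 (SE, edgeR adjusted p = 0.0431), and it was no longer called without 3 weeks replicate 3 (0.88 ± 0.31, edgeR adjusted p = 0.0574). It was called in 9 of 22 alternatives. The edgeR adjusted p was highest under the deposit number block (0.124), and was 0.0568 for those 6 samples without it. mt-Ty, for tyrosine, had 13, 5, 4 and 4 reads at 1 week and 16, 23, 65 and 14 at 3 weeks. It passed the read filter only through its 3 weeks reads and had no unique read. Its log2 fold change was 2.50 ± 0.66 (SE, edgeR adjusted p = 0.0190). It was called in 16 of 21 alternatives, and its adjusted p was highest under the deposit number block (edgeR adjusted p = 0.0959). mt-Ts1, for a serine transfer RNA and the most counted with 2222 reads, had 263, 292, 120 and 163 reads at 1 week and 219, 205, 675 and 285 at 3 weeks (log2 fold change 1.10 ± 0.44 SE, edgeR adjusted p = 0.0881). mt-Tc, for cysteine, was at 10.4 to 18.9 RPKM at 1 week and 12.2 to 107 RPKM at 3 weeks (log2 fold change 1.90 ± 0.68 SE, edgeR adjusted p = 0.0609, and 0.75 without 3 weeks replicate 3). For mt-Tm, for methionine, which had too few reads to be tested, there were 1, 0, 1 and 1 reads at 1 week and 11, 7, 28 and 2 at 3 weeks.

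Some reads of mitochondrial genes also match nuclear DNA, where copies of mitochondrial sequence have been inserted. No pseudogene of this kind was among the genes listed. Of the reads on mt-Co1, mt-Co2 and mt-Nd2, 76.4%, 72.2% and 93.8% were listed as unique, while mt-Ts1, mt-Tn and mt-Ty had no unique read. In GENCODE M21, the pseudogenes Gm13339, Gm13340 and Gm13341 on chromosome 2 share 71 of the 980 stretches of 59 bases in mt-Nd2, 335 of 1487 in mt-Co1 and 188 of 626 in mt-Co2. Further pseudogenes on chromosome 1 share 620 of the 623 stretches of mt-Atp6, 725 of 726 of mt-Co3 and 284 of 290 of mt-Nd3. They also share 236 of 239 of mt-Nd4l and 818 of 1320 of mt-Nd4. Reads of these genes were all listed as unique. For mt-Co2 and mt-Co1, chromosome 1 pseudogenes share 623 of 626 and 421 of 1487. The log2 fold changes from unique reads were 1.04 to 2.24 over the 13 messenger RNA genes, and 6 of them were called, as with total reads. mt-Nd4l and mt-Nd4 were among the 6. Reads matching their chromosome 1 copies were still listed as unique, so this fit cannot set such reads apart.

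Of nuclear genes whose products act on mitochondrial DNA or RNA, more fell than rose. Among 50 such genes tested in 4 lists, 2 rose and 18 (36.0%) fell, where 17.0% of all genes tested fell and 15.7% rose. The median log2 fold change was -0.42. Without 3 weeks replicate 3, 1 rose and 24 fell, where 2667 of all 12799 genes tested fell. With the deposit number block 0 rose and 14 fell, where 1793 of all 12649 genes tested fell.

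The lists were chosen by function. Among 9 genes of transcription, 1 fell, Tefm, the elongation factor of the mitochondrial RNA polymerase (9.69 ± 1.52 RPKM at 1 week and 5.49 ± 1.13 at 3 weeks, SD, n = 4; log2 fold change -0.64 ± 0.22 SE, edgeR adjusted p = 0.0497); it passed in 13 of 23 alternatives. Among 12 genes of replication and nucleotide supply, 3 fell and 1 rose. Mgme1, a nuclease that trims ends during replication, was at 3.14, 3.73, 2.60 and 3.08 RPKM at 1 week and at 1.09, 0.98, 1.04 and 1.02 at 3 weeks, without overlap (log2 fold change -1.44 ± 0.17 SE, edgeR adjusted p = 6.45e-04). Top1mt, the mitochondrial topoisomerase I, and Polg, the catalytic subunit of the DNA polymerase, had log2 fold changes of -0.72 and -0.49, and Tk2, a thymidine kinase, of 0.47. The call of Tk2 held in 9 of 23 alternatives. The calls of Tk2 (edgeR adjusted p = 0.208) and Polg (0.0884) were lost under the deposit number block.

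Of 19 genes of RNA processing, polyadenylation and stability, 9 fell and 1 rose. Fastkd2, an RNA-binding protein of mitochondrial RNA granules, was at 6.37, 5.74, 5.53 and 5.77 RPKM at 1 week and at 2.20, 2.82, 2.85 and 1.54 at 3 weeks (log2 fold change -1.14 ± 0.22 SE, edgeR adjusted p = 0.00490). Pnpt1, the polynucleotide phosphorylase that degrades mitochondrial RNA, had a log2 fold change of -0.95, and Tbrg4, which stabilises some of the messenger RNAs, of -0.91. These 3 genes were lower in every 3 weeks sample than in every 1 week sample. Rexo2, an oligoribonuclease, rose (log2 fold change 0.60 ± 0.17 SE, edgeR adjusted p = 0.0239). It was not called under the deposit number block (edgeR adjusted p = 0.103). Of 10 genes for modification of ribosomal and transfer RNA, 5 fell. On the log2 scale, the largest falls were Mrm3 (-1.12) and Tfb1m (-0.88), which methylate ribosomal RNA, and Mto1 (-0.89), which modifies transfer RNA. Tfb1m was not called under the deposit number block (edgeR adjusted p = 0.0718).

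A further list held 7 regulators of mitochondrial biogenesis, which act on nuclear genes. Of these, Ppargc1a was not among the genes tested. Of the 6 tested, 3 fell, where 17.0% of all genes tested fell. The 3 that fell were the coactivators Ppargc1b (0.344 ± 0.0901 RPKM at 1 week and 0.0258 ± 0.0233 at 3 weeks, SD, n = 4) and Pprc1 (8.51 ± 0.463 and 3.84 ± 1.25), and the transcription factor Nrf1 (2.89 ± 0.231 and 1.74 ± 0.139). The levels of Ppargc1b were low in both groups. Nrf1 and Pprc1 did not overlap between the groups.

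Nuclear subunits of the same complexes mostly did not pass the test. Of 70 tested, 3 rose and 1 fell, where 15.7% of all genes tested rose and 17.0% fell. The median log2 fold change of the 70 was 0.06. Those that rose were Ndufv3 of complex I (0.44 ± 0.12 SE, edgeR adjusted p = 0.0248), Cox6b1 of complex IV (0.63 ± 0.18, edgeR adjusted p = 0.0264) and Cox6a1, also of complex IV. Cyc1, cytochrome c1 of complex III, fell (-0.68 ± 0.21, edgeR adjusted p = 0.0330). This split rests on 3 weeks replicate 3, without which 2 rose and 16 fell, where 2667 of all 12799 genes tested fell. limma on log2(RPKM + 0.1), where scaling and model both change, gave 1 higher and 14 lower. It called 3089 of all 12590 genes lower. Scaling from nuclear genes alone gave 3 higher and 1 lower. With the deposit number block 0 rose and 5 fell, where 1793 of all 12649 genes tested fell. Ndufv3, Cox6b1 and Cox6a1 were not called there (edgeR adjusted p = 0.214, 0.155 and 0.250). None of the 14 tested subunits of ATP synthase passed.

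**Figure D5:**
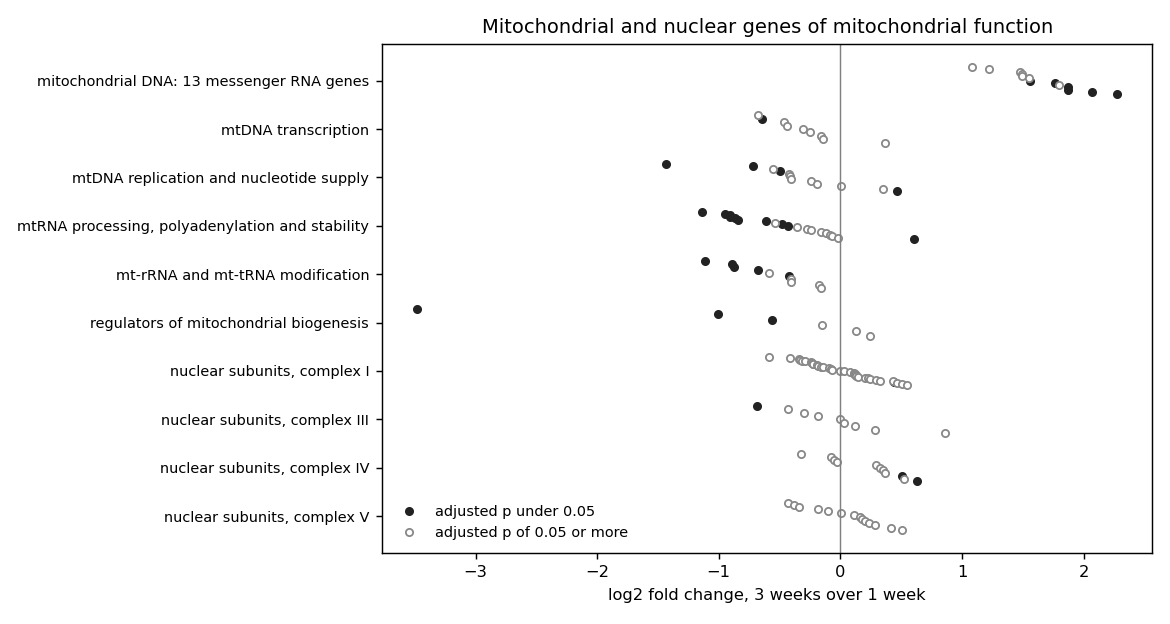
log2 fold change of the 13 mitochondrial messenger RNA genes and of each tested nuclear gene in 5 lists by function (4 of factors and 1 of regulators) and 4 lists of complex subunits; black points have an edgeR adjusted p under 0.05. The mitochondrial genes lie at 1.08 to 2.28, most genes of the 5 functional lists lie below 0, and the subunits spread around 0.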

How the data were processed

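Poly(A) libraries of 8 KC samples were sequenced in single reads of 59 bases. The authors aligned them with CLC Genomics Workbench at default RNA-seq settings to GRCm38 (per the labels) and deposited 1 gene table per sample with raw counts of total and unique exon reads, reads on the gene and intron reads, and with RPKM, which equals reads per exon length and mapped reads. The annotation release and any strand setting are not given in the sources used here. The study describes independent batches of KCs sampled at both times; donor mice are not given per sample, so p-values measure the spread between these samples. Deviations from group means correlated at -0.23, 0.20 and 0.25 for the deposit numbers 46, 49 and 90. So few pairs cannot decide whether the samples are paired, and the main fit took them as unpaired.

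Counts of total exon reads entered edgeR 4.0.16 (R 4.3.3; filterByExpr, TMM, glmQLFit and glmQLFTest, 3 weeks against 1 week, no covariates, Benjamini-Hochberg over all genes, threshold 0.05), checked on simulated counts first. In the simulated counts, 37.5% of 96 genes with a 2-fold change and 87.4% of 95 with a 4-fold change were recovered, with 3 false calls. A gene that missed the threshold can thus still have changed 2-fold. DESeq2 1.42.0 and limma 3.58.1 served as alternatives. Named were all mitochondrial messenger and ribosomal RNA genes, the 5 most counted transfer RNA genes, and of each nuclear list the largest called rises and falls (3 each for the functional lists, 1 each for the complexes). mt-Ty, mt-Tm, mt-Tr, mt-Ts2, Cox6a1, Ppargc1a and Cd207 were named after their values were seen. The members and lists were chosen with earlier results of these data known. TPM was not used.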

Additional observations from a re-analysis of the deposited data

Results flagged for a closer look

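In 48 groups of 4 samples (RPKM of the 20 named mitochondrial genes, and 4 shares of exon reads), the highest or lowest sample stood apart from the others beyond Dixon's 95% critical value in 16, of which 14 were 3 weeks replicate 3. Chance flags about 1 in 20 groups, and the measures share libraries. In 3 weeks replicate 3 the samples apart were the shares of exon reads of all mitochondrial genes (13.3%), messenger RNA genes (12.4%) and transfer RNA genes (0.0107%), and the RPKM of mt-Rnr1 (1356), mt-Nd1 (10874), mt-Nd2 (4499), mt-Co2 (15669), mt-Atp8 (28200), mt-Atp6 (36739), mt-Co3 (24296), mt-Nd3 (8677), mt-Cytb (7905), mt-Tc (107) and mt-Tn (92.6). At 1 week they were mt-Rnr1 in replicate 1 (373 RPKM) and mt-Nd6 in replicate 2 (251 RPKM).

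The intron reads, which entered comparisons only as part of the reads on the gene, held a signal on Myo3a. This nuclear gene at 2:22227503-22618252 had no exon read in any sample. The 3 chromosome 2 pseudogenes of mt-Nd2, mt-Co1 and mt-Co2 lie inside it. Myo3a had 3260, 3266, 1530 and 1830 intron reads at 1 week and 2779, 2736, 9157 and 3317 at 3 weeks. This was 1.23% to 1.42% of the reads on mt-Nd2, mt-Co1 and mt-Co2 in every sample, and it was highest in 3 weeks replicate 3. In that sample, 9156 of the 9157 intron reads were listed as unique.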

How the results depend on the processing

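No mitochondrial gene was called lower in any of the 23 alternatives, and 5 genes (mt-Nd4l, mt-Nd4, mt-Nd5, mt-Nd6 and mt-Te) were called higher in all of them. DESeq2 called 20 mitochondrial genes higher, with 13 messenger RNA and 7 transfer RNA genes, and, in an alternative chosen after seeing the data, 11 messenger RNA genes without 3 weeks replicate 3. Of all genes tested, DESeq2 called 2424 of 12590 higher, and 2761 of 12799 without 3 weeks replicate 3. Transfer RNA genes called higher were 4 in the report, 2 from unique reads and 2 with the replicate block. From unique reads only 4 transfer RNA genes were tested, and mt-Tn and mt-Ty, which had no unique read, could not be called. Of all 11893 genes tested from unique reads, 1759 were higher. Over the 6 samples whose deposit number both groups carry, 1 transfer RNA gene was called higher, with or without that number as a block. The replicate block gave 7 mitochondrial genes higher, where 1309 of all 12590 genes tested were. Deviations from group means correlated at -0.23, -0.15, -0.15 and 0.25 for replicate numbers 1 to 4, which is too few pairs to decide pairing. The 6 samples with shared deposit numbers leave out 1 week replicate 2 and 3 weeks replicate 3. Over them, mt-Rnr2 was at 0.0095 on the log2 scale without the block and at -0.059 with it. Either way, 7 mitochondrial genes were called higher, where 1316 (block) or 1642 (no block) of all 12649 genes tested were. Over these 6 samples, factors were called 0 higher and 14 (block) or 19 (no block) lower, and subunits 0 higher and 5 or 13 lower. Of all 12649 genes tested there, 1793 (block) or 2218 (no block) were called lower. The fit without the block, and the block for nuclear lists, were chosen after seeing the data. Leaving out 1 sample gave 5 to 17 mitochondrial genes higher (5 without 1 week replicate 4, 6 without 1 week replicate 2 or 3, 17 without 3 weeks replicate 4). Of messenger RNA genes 4 to 11 were called, and of transfer RNA genes 1 to 6. Of all genes tested, 1371 of 12741 were higher without 1 week replicate 4, and 2284 of 12810 without 3 weeks replicate 4. Without 1 week replicate 2 or 3 these were 1539 of 12755 and 1573 of 12820. The difference in share was 1.33 to 4.51 percentage points in all and -0.000154 to 0.230 for ribosomal RNA, which turned without 3 weeks replicate 3. Of the factors acting on mitochondrial DNA or RNA, limma on log2(RPKM + 0.1) called 1 higher, the replicate block 0, and leaving out a sample 0 to 2 higher and 14 to 24 lower. Of nuclear subunits, DESeq2 called 3 lower, limma 1 higher and 14 lower, and the replicate block 1 higher and 0 lower. Leaving out a sample gave 0 to 6 subunits higher (0 without 1 week or 3 weeks replicate 2, 6 without 3 weeks replicate 4). It gave 0 to 16 lower (16 without 3 weeks replicate 3). Of all genes tested, 2458 of 12590 were lower with DESeq2, 3089 of 12590 with limma and 2667 of 12799 without 3 weeks replicate 3. Of all calls, 48.0% were higher with TMM, 31.4% without normalization factors, where the median of all genes moved from 0.03 to -0.13, and 29.8% with limma on RPKM. The causes of these shifts were not tested.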
